A study of Homo sapiens with 9 samples.

Results

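The SOX, T-box and GATA genes, 3 families of developmental transcription factors, were followed through 4 lists of accessible chromatin from HEK293T cells. The members were the 42 genes with these DNA-binding domains that were listed by symbol, 19 SOX, 17 T-box and 6 GATA genes, among 19974 protein-coding genes on chromosomes 1 to 22 and X. A peak counted for a gene when it shared at least 1 bp with the gene body or the 10 kb on either side of it. A gene was called open in a list that held such a peak and closed in a list that held none.

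HEK293T is an established human embryonic kidney line, and the assay was ATAC-seq, in which a transposase cuts and tags DNA that is free of nucleosomes. The 4 groups were a control carrying a guide that targets no mammalian gene (labelled wild type, libraries of batches 2 and 3), an IGF2BP1 knockout (batches 1, 2 and 3), an IGF2BP2 knockout (batches 2 and 3) and an IGF2BP3 knockout (batches 2 and 3). All groups were otherwise untreated. IGF2BP1, IGF2BP2 and IGF2BP3 are RNA-binding proteins. Each knockout came from transient transfection with a plasmid carrying 3 guides and from sorting of single cells, and 1 clone per gene was profiled, so that the effect of the clone and that of the missing gene cannot be told apart. The 9 libraries were deposited as 1 list per group, without heights, scores or values per library. There was therefore no spread between replicates and no test, and each comparison is of 4 lists.

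The lists differed in length, which bears on every count. They held 39194 peaks in the control, 50917 in the IGF2BP1 knockout, 60262 in the IGF2BP2 knockout and 44041 in the IGF2BP3 knockout. The read depth behind them is unknown, and no interval can be given. The IGF2BP1 knockout had 3 libraries and alone included batch 1, while each other group had 2 libraries. For peaks of that list alone, the number of libraries, batch 1 and the knockout cannot be told apart. Within 1 Mb of the members, the knockout lists held a median of 1.29, 1.42 and 1.09 times as many peaks as the control list, in the order IGF2BP1, IGF2BP2 and IGF2BP3. The lists hold no RNA or protein values, so the loss of each target protein, which the submitters assessed in the colonies, was not checked here. In bulk cells, a site open in fewer cells and a site open to a lesser degree in every cell cannot be told apart.

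SOX proteins bind the minor groove of DNA through an HMG box and bend it. They set and hold progenitor states in the nervous system, neural crest, cartilage, endothelium and testis. T-box factors, named after Brachyury, bind DNA through the T-box domain and pattern mesoderm, heart, limb and pharynx. GATA factors bind the motif of their name through paired zinc fingers and direct blood, heart and endoderm development, and GATA3 also acts in the kidney duct lineage.

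The sequence just before the transcription start site was examined first, since 5 RefSeq promoter windows of the members, each 250 bases before to 50 after a start (GRCh38.p14), were under a peak in some lists and not in others. These were 5 of 44 windows (11.4%), against 7.39% of the windows of protein-coding genes. GATA3, which has 6 of the 44 windows, held 3 of the 5. Their 250 upstream bases are printed 5′ to 3′ on the gene's strand, with the bases under the control peak in capitals. They lie at chr5:157671481-157671730 (minus strand, SOX30), chr11:67639764-67640013 (minus strand, TBX10) and, on the plus strand within GATA3, at chr10:8049604-8049853, chr10:8050986-8051235 and chr10:8054438-8054687.
SOX30: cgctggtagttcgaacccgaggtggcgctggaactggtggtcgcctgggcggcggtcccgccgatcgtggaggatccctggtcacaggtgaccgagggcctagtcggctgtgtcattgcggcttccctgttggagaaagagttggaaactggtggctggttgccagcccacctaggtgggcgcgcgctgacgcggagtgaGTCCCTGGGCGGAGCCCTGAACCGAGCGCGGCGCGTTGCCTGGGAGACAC
TBX10: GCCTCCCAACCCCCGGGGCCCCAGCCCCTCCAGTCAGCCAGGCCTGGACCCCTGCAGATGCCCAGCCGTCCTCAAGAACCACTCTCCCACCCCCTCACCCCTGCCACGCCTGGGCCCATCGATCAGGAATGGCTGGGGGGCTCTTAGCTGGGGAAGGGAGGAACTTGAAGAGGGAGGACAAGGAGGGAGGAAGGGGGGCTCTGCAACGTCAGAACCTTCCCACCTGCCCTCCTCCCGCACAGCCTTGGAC
GATA3 start 2: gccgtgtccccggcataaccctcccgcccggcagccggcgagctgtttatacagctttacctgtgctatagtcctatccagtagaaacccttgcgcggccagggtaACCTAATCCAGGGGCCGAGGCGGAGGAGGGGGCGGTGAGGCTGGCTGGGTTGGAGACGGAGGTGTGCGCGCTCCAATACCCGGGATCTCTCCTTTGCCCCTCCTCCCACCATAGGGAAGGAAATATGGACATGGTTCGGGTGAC
GATA3 start 3: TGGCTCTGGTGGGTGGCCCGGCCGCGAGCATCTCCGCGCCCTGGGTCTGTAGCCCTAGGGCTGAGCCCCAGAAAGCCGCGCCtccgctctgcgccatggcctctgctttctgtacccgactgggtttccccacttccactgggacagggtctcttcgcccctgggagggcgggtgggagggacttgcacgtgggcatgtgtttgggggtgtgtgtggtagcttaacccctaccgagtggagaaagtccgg
GATA3 start 5: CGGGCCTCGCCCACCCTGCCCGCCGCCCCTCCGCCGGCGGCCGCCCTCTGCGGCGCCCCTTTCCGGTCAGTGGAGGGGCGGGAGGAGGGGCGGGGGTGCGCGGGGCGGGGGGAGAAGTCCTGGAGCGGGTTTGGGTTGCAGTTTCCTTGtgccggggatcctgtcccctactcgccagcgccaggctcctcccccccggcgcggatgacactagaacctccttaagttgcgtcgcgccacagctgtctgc

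At the SOX30 start, 100 of the 300 bases of the window lay under a peak in the control, 94 in the IGF2BP1 knockout and 0 in the IGF2BP2 and IGF2BP3 knockouts. At the TBX10 start, the covered length was 292, 276, 73 and 0 bases in the control and the IGF2BP1, IGF2BP2 and IGF2BP3 knockouts. GATA3 starts are numbered by coordinate. Start 2 of GATA3 had 194 covered bases in the control and 300 in the IGF2BP3 knockout, and 0 in the IGF2BP1 and IGF2BP2 knockouts. Start 3 had 82, 0, 19 and 208 covered bases in the same order of lists, and start 5 had 149, 0, 300 and 269. The IGF2BP1 knockout thus had no peak at any of these 3 GATA3 starts, and the IGF2BP3 knockout had none at TBX10.

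RefSeq promoter windows were at hand for 28 members, 44 windows in all. A peak covered part of the window in all 4 lists at 20 windows (45.5%), against 57.9% of 22132 windows of protein-coding genes. No list covered 19 windows (43.2%, against 34.8%). Seen by gene, 17 of the 28 members (60.7%, against 64.4% of 15812 protein-coding genes) had at least 1 start covered in all 4 lists, among them SOX2, SOX4, SOX21, TBX18, TBX20, EOMES, GATA2 and GATA6. The starts of 9 members (32.1%, against 29.6%) were covered in no list, namely SOX1, SOX3, TBX4, TBX5, TBX19, TBX22, TBXT, TBR1 and GATA1. The remaining 2 of the 28 members, SOX30 and TBX10, had a start covered in some lists and no start covered in all 4. The T-box family held 6 of the 9 genes covered in no list, of 14 with an entry, the SOX family 2 of 10 and the GATA family 1 of 4. SOX7, SOX8, SOX9, SOX10, SOX11, SOX14, SOX15, SOX17, SOX18, TBX2, TBX3, TBX15, GATA4 and GATA5 were not included in the promoter comparison.

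Base composition separated covered from uncovered windows only in part. The median number of CpG dinucleotides was 22 in the 20 windows under a peak in all lists and 10 in the 19 windows under none, and the median GC content was 64.2% and 54.3%. For all protein-coding genes the same medians were 28 and 5 CpG, and 66.7% and 52.3% GC. SOX1 and SOX12 show the overlap of the groups: the SOX1 window was 80.0% GC with 37 CpG and had no peak in any list, and the SOX12 window was 80.3% GC with 54 CpG and was covered along all 300 bases in all 4 lists. The SOX4 window was covered in all 4 lists with 8 CpG. The 250 bases before the SOX1 start (chr13:112066899-112067148, plus strand) and the SOX12 start (chr20:325302-325551, plus strand) are printed with each CpG in capitals.
SOX1: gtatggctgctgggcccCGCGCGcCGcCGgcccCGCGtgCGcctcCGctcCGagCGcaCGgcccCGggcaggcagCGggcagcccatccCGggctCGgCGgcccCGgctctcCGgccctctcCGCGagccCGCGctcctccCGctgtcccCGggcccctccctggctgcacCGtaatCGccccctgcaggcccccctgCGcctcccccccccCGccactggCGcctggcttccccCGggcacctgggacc
SOX12: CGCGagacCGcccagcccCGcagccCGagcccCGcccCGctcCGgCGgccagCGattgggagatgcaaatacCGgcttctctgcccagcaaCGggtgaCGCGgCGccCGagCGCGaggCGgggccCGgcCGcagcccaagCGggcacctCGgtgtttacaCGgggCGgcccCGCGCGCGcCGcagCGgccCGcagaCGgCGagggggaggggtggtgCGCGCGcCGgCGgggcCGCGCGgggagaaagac

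Letters resembling the binding motifs of the families themselves were counted on both strands of the 44 windows. The GATA-type motif AGATAA was in 2 windows (4.55%), at SOX6 and TBX19, against 7.88% of all protein-coding windows. The SOX-type motif ACAATG was in 7 (15.9%, against 8.16%) and ACAAAG in 4 (9.09%, against 13.6%), and the T-box motif GGTGTGA was in 1 (2.27%, against 3.27%). Of the 7 windows with ACAATG, 6 were under no peak in any list (85.7%), as were 56.3% of the 1806 protein-coding windows with it. No motif contains another. The single T-box match lay before SOX2, whose window also held an ACAAAG, and its 250 upstream bases (chr3:181711675-181711924, plus strand) are printed with both matches in capitals. A match describes the letters only.
SOX2: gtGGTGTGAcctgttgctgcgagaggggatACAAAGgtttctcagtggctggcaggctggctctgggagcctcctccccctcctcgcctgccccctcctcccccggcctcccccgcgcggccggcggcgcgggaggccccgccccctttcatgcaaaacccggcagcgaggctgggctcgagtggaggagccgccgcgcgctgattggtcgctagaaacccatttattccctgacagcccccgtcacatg

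Over gene bodies with their 10 kb flanks, 34 of the 42 members (81.0%) were open in all 4 lists, against 81.8% of all protein-coding genes. There were 2 members (4.76%) closed in all lists, SOX17 and TBX22, against 10.2% of protein-coding genes. The remaining 6 (14.3%, against 8.03%) differed between lists, and were SOX10, SOX14, SOX30, TBX5, TBX15 and TBXT. Of these, SOX10, SOX14 and TBXT were closed in the control and open in each knockout, 3 of 42 members, against 1.51% of protein-coding genes. The opposite, open in the control alone, was rare among all genes too, with 0 of 42 members and 46 of 19974 protein-coding genes. The share open in all lists was close to that of all genes, with a median window of 31.6 kb for the members and 44.2 kb for all genes. By list, 35 members were open in the control, 39 in each of the IGF2BP1 and IGF2BP2 knockouts and 38 in the IGF2BP3 knockout, or 83.3%, 92.9%, 92.9% and 90.5%, against 84.1%, 87.0%, 87.7% and 85.1% of all genes.

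By family, all 6 GATA genes were open in all lists, against 15 of 19 SOX genes (78.9%) and 13 of 17 T-box genes (76.5%). The GATA family is small, and at GATA1 the only peak lay in another gene. The median window was 24.9 kb for SOX, 37.0 kb for T-box and 41.8 kb for GATA, and its part in the result was not tested. Within 1 kb of a start site or gene end, 11 of 19 SOX, 11 of 17 T-box and 4 of 6 GATA genes were open in all lists. The SOX genes that differed were SOX10, SOX14 and SOX30, and the T-box genes were TBX5, TBX15 and TBXT. The median number of peaks per gene in the control was 2 for SOX, 1 for T-box and 2 for GATA, and 2 for all protein-coding genes.

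**Figure D1:**
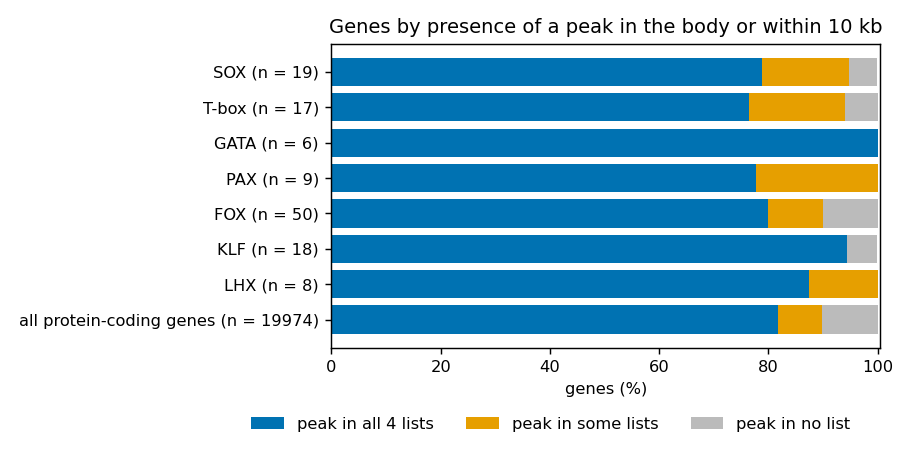
Percentage of genes (horizontal axis) with a peak in the gene body or within 10 kb in all 4 lists, in some lists or in no list, for the 3 families, 4 other transcription factor families and all protein-coding genes. All 6 GATA genes had a peak in all lists, and 15.8% of SOX and 17.6% of T-box genes differed between lists, against 8.03% of all protein-coding genes.

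Peak density differed between the families. Per 100 kb of gene and flank, the control list held 1.53 peaks at SOX genes, 3.03 at T-box genes and 5.0 at GATA genes, against 2.26 over all protein-coding genes. SOX5 and SOX6 are the longest members (1033147 and 772029 bp) and were set apart after their values were seen. Without them the SOX density in the control was 5.1, close to that of GATA, and in SOX5 and SOX6 it was 0.542. In the IGF2BP1, IGF2BP2 and IGF2BP3 knockouts the T-box density was 3.79, 4.0 and 3.9 and the GATA density 5.0, 5.34 and 5.67. The SOX density was 2.21, 2.17 and 1.74, and without SOX5 and SOX6 it was 5.89, 5.89 and 5.49. Over all protein-coding genes the density also rose above the control in each knockout list, to 2.66, 2.95 and 2.34.

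**Figure D2:**
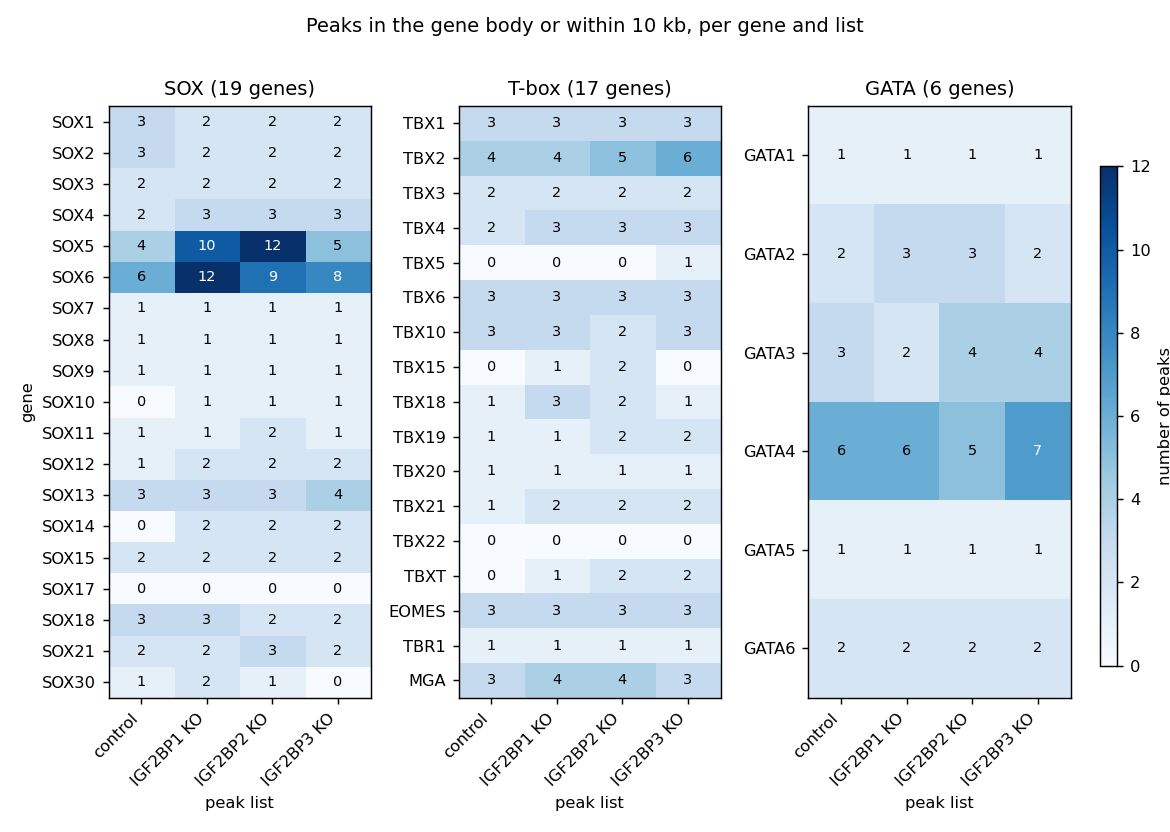
Number of peaks in the gene body or within 10 kb for each of the 42 genes (rows) in each of the 4 lists (columns), with darker blue for more peaks. SOX5 and SOX6 rise from 4 and 6 peaks in the control to as many as 12 in a knockout list, SOX10, SOX14 and TBXT are at 0 in the control alone, and SOX17 and TBX22 are at 0 throughout.

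Among the SOXB1 genes, which maintain neural progenitors, all 3 members were open in all lists. SOX2 had 1 region over its start in all 4 lists, from chr3:181711304-181713400 when the lists were merged. It was covered by 2 peaks of 739 and 816 bp in the control and by 1 peak of 2097 bp in the IGF2BP1 knockout. The IGF2BP2 knockout had 2 peaks of 758 and 752 bp, and the IGF2BP3 knockout 2 of 635 and 974 bp. The gap between the paired peaks was therefore filled in the IGF2BP1 knockout list alone. A region 9227 bp before SOX2, inside the lncRNA gene SOX2-OT, had peaks of 520 bp in the control and 686 bp in the IGF2BP1 knockout and none in the others.

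SOX1 had no peak in its body in any list, and its regions lay in flanks annotated as SOX1-OT. The region 665 bp past the high-coordinate end was in all 4 lists at 1258, 1384, 1210 and 1180 bp (control, IGF2BP1, IGF2BP2 and IGF2BP3 knockout). The region on the other side, 8992 bp away, varied more, at 1014, 1763, 578 and 1383 bp. The peak of 656 bp at chr13:112079291-112079946 was in the control alone. SOX3 kept a region in its body (764, 711, 636 and 622 bp) and one 2049 bp outside it, which was wider in the IGF2BP1 and IGF2BP3 knockouts (679, 1200, 695 and 1153 bp).

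The SOXB2 genes SOX14 and SOX21, which counteract SOXB1 factors during neuronal differentiation, both carried regions that the control list lacked. At SOX14 the control held 0 peaks and each knockout held 2. The region at the low-coordinate end, chr3:137763409-137764430, was 1022, 503 and 675 bp wide in the IGF2BP1, IGF2BP2 and IGF2BP3 knockouts. Its peaks stood at the 67.1, 28.3 and 45.3 percentile of width in their lists. The region 4283 bp past the other end, chr3:137770617-137772167, was 1342, 1384 and 1316 bp wide, and these peaks stood at the 85.4, 93.5 and 88.8 percentile of width in their lists. The peaks past the other end were therefore wide for their lists, and those at the low-coordinate end were not uniformly so. Within 1 Mb of SOX14 the lists held 21, 35, 39 and 26 peaks in the order control, IGF2BP1, IGF2BP2 and IGF2BP3 knockout, and the part of this wider difference in the result was not tested.

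SOX21 was open at its start in all 4 lists, at 2190 bp in 2 peaks in the control, 2405 bp in 1 peak without IGF2BP1, 2485 bp in 2 peaks without IGF2BP2 and 2490 bp in 1 peak without IGF2BP3. A second region 1154 bp from the gene, chr13:94707409-94708468 in LINC00391, had peaks of 1001, 974 and 849 bp in the 3 knockouts and none in the control. The stretch within 1 Mb of SOX21 held 27 control peaks and 53, 53 and 50 knockout peaks, so additional peaks were common around the gene as well, and their part in the result was not tested.

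**Figure D3:**
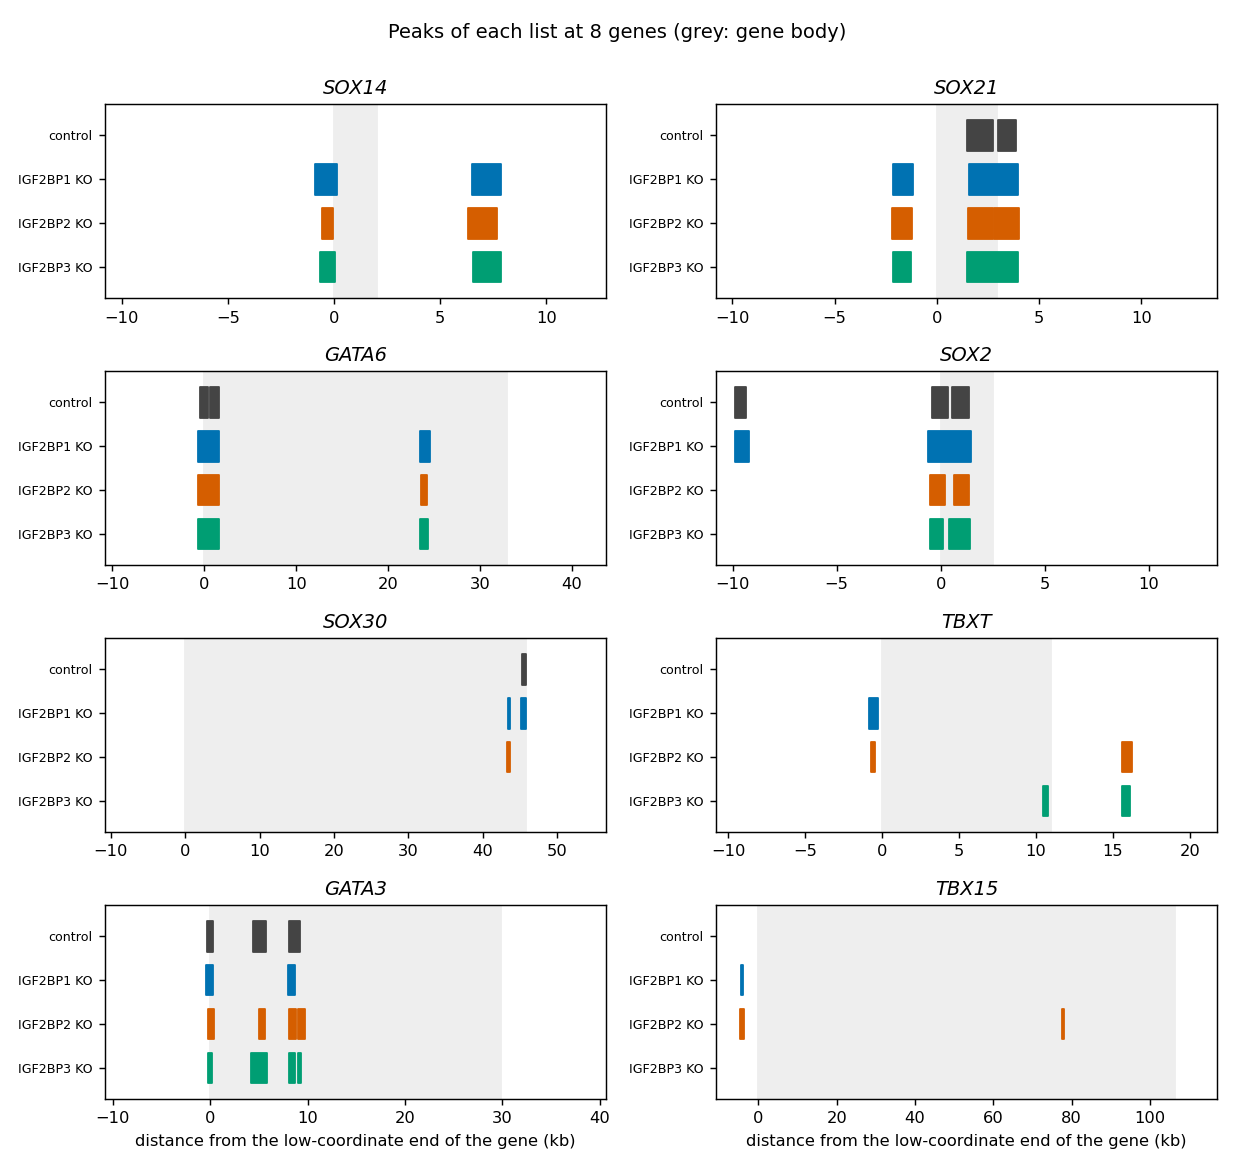
Peaks of each list (rows, coloured by list) at 8 genes, drawn to scale against the distance in kb from the low-coordinate end of the gene, with the gene body in grey. SOX14 has 2 peaks in each knockout row and none in the control row, the GATA6 start peak is split in the control row alone, and the TBXT peaks of different rows lie at different places.

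The SOXC genes, which act in neuronal and mesenchymal progenitors, were open in all lists. SOX4 had the widest SOXC peak away from the start, 4238 bp from the gene, at 2351, 2390, 2385 and 2314 bp in the 4 lists. These peaks stood at the 99.6, 99.5, 99.8 and 99.6 percentile of width in their lists. A further SOX4 region, 9834 bp past the gene, was held by each knockout list (636, 681 and 324 bp) but absent from the control list. SOX11 had its region at chr2:5695927-5697376, inside the gene, at 1418, 1450, 411 and 1295 bp, so that the IGF2BP2 knockout peak was 0.29 times the control width. That list had a further SOX11 peak of 613 bp, chr2:5693461-5694073, which brought its summed width to 1024 bp. The start region of SOX12 was 2392 bp in the control and narrower in each knockout, at 1847, 1538 and 1632 bp. Each knockout list had a further SOX12 peak that the control lacked, which brought the summed widths to 2361, 1832 and 2061 bp.

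The SOXD genes SOX5, SOX6 and SOX13, which lack an activation domain and work with other SOX factors in cartilage and glia, held 33 of the 63 SOX regions. SOX5 had 4, 10, 12 and 5 peaks and SOX6 had 6, 12, 9 and 8 peaks in the control and the IGF2BP1, IGF2BP2 and IGF2BP3 knockouts. In both genes together, 30 regions were found, and 8 of them (26.7%) were held by all 4 lists, 17 by a single list. The 4 lists, in the same order, alone held 3.33%, 30.0%, 20.0% and 3.33% of the 30, against 2.09%, 5.65%, 12.0% and 3.84% at protein-coding genes. In the other 17 SOX genes, 20 of 33 regions (60.6%) were in all 4 lists, against 48.9% at protein-coding genes. Within 1 Mb of SOX5, the gene included, the lists held 19, 29, 43 and 24 peaks. The same counts for SOX6 were 48, 71, 57 and 60, and the part of these wider differences in the result was not tested. The SOX5 start carried the widest control peak of the family, 2622 bp, with 2540, 2488 (in 2 peaks) and 2455 bp in the knockouts.

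SOX5 and SOX6 each had 1 region that every knockout list held and the control list lacked. The SOX5 region, chr12:24537087-24538620, was 1363, 1256 and 1078 bp wide and lay 23871 bp from the start site. The SOX6 region, chr11:16147888-16149113, was 1226, 953 and 526 bp wide. The SOX regions found in the IGF2BP1 knockout alone numbered 9 (14.3% of SOX regions, against 5.65% at protein-coding genes), all in SOX5 or SOX6. Those of the IGF2BP2 knockout alone numbered 7 (11.1%, against 12.0%), of which 6 lay in SOX5 or SOX6. SOX13, by contrast, had 3 regions and all of them were in all 4 lists, with 2076, 2224, 2005 and, in 2 peaks, 1951 bp at its start.

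Among the SOXE genes of neural crest and glia, SOX9 was open at its low-coordinate end in all lists (1762, 1974, 1698 and 2111 bp). SOX8 had a single region, which it shared with LMF1, at 1438, 1440, 802 and 896 bp. At SOX10 the control held no peak and the knockouts had 1 peak each, of 520, 445 and 401 bp, within the merged region chr22:37964916-37965439. These peaks lay 6873 bp outside SOX10 and within POLR2F, a subunit gene of RNA polymerases, and were narrow for their lists, at the 12.3 percentile of width in the IGF2BP1 knockout and the 18.6 percentile in the IGF2BP2 knockout.

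The SOXF genes of endothelium and endoderm were mixed. SOX17, which specifies endoderm, had no peak in its body or within 10 kb in any list. SOX7 had 1 region in all 4 lists (1305, 1251, 1217 and 1339 bp). SOX18 had a region at the high-coordinate end of its body, chr20:64049181-64050158, in the control (875 bp) and the IGF2BP1 knockout (894 bp) and in no other list, while its remaining peaks lay in the neighbours C20orf204 and TCEA2. SOX15 was open only through peaks inside CD68 and MPDU1. SOX30, a regulator of spermatid development, had a start peak of 620 bp in the control and 668 bp in the IGF2BP1 knockout. This region also overlapped C5orf52, and without peaks in other coding genes SOX30 was closed in the control. A second region in the SOX30 body had peaks of 301 bp in the IGF2BP1 knockout and 374 bp in the IGF2BP2 knockout. No SOX30 peak was listed without IGF2BP3.

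Among T-box genes, the Brachyury gene TBXT, which drives mesoderm and notochord formation, was closed in the control and open in each knockout by different peaks. The IGF2BP1 knockout had 1 peak of 583 bp and the IGF2BP2 knockout an overlapping peak of 300 bp, 261 bp outside the low-coordinate end. The IGF2BP2 and IGF2BP3 knockouts shared a region 4600 bp past the other end (621 and 522 bp), and the IGF2BP3 knockout had a peak of 280 bp in the body, 232 bp from a start site. No TBXT region was therefore common to the 3 knockouts. By width in its list, the IGF2BP1 knockout peak stood at the 19.9 percentile. Those of the IGF2BP2 knockout stood at 2.7 and 46.2, and those of the IGF2BP3 knockout at 1.0 and 26.0. With the widest peaks of each list, as many as the control list holds, TBXT was open in the IGF2BP2 and IGF2BP3 knockouts alone. TBX19, a pituitary factor, was open in all lists and yet had no region held by all 4. The IGF2BP2 knockout lacked the region at chr1:168285036-168285976 (484, 937 and 615 bp in the control and the IGF2BP1 and IGF2BP3 knockouts). The control peak stood at the 14.9 percentile of width, and the TBX19 peaks of the IGF2BP2 knockout at 2.7 and 5.9. With peaks of at least 500 bp, TBX19 was closed in the control and the IGF2BP2 knockout. With the widest peaks of each list it was closed in the IGF2BP2 knockout alone.

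In the TBX1 group, TBX1, TBX10, TBX18 and TBX20 were open in all lists. TBX18, which acts in the mesenchyme of the ureter and in the epicardium, carried the widest control peak of the T-box family, and its start region measured 2506, 2696, 2293 and 2506 bp. The control and IGF2BP3 knockout peaks began and ended at the same base, chr6:84762502-84765007. TBX20, a heart factor, had a single region of 1096, 1224, 1107 and 1055 bp. TBX1, a factor of the pharyngeal arches, had 3 regions in each list. The 2 away from its start were narrower in the IGF2BP2 knockout, at 1243, 1377, 650 and 1087 bp and at 1167, 1024, 577 and 920 bp. The TBX10 region at the start measured 897 and 846 bp in the control and the IGF2BP1 knockout, and 410 and 457 bp in the other lists.

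TBX15 was open in the IGF2BP1 knockout, with a peak of 595 bp, and in the IGF2BP2 knockout, with peaks of 968 and 438 bp. The control and the IGF2BP3 knockout had no TBX15 peak, and the larger region, chr1:118878301-118879268, lay 3779 bp outside the gene. Within 1 Mb of TBX15 the 4 lists held 37, 48, 64 and 25 peaks, also more in the IGF2BP1 and IGF2BP2 knockouts, and their part in the result was not tested. TBX22, a gene of palate development, had no peak in any list. The stretch within 1 Mb of it was also sparse, with 6, 12, 14 and 10 peaks.

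In the TBX2 group, TBX2, TBX3 and TBX4 were open in all lists. TBX2, a repressor in limb and heart, had 4, 4, 5 and 6 peaks, and the region at its low-coordinate end measured 887 and 1815 bp in 1 peak each in the control and the IGF2BP1 knockout, and 1567 and 1262 bp in 2 peaks each in the others. TBX3, a related repressor, kept its regions at 1776, 1858, 1648 and 1602 bp and at 1196, 1254, 1232 and 1210 bp. TBX5, which patterns the forelimb and heart, had 1 peak of 786 bp in the IGF2BP3 knockout and none elsewhere, at chr12:114396029-114396814 in its body, 11198 bp from the nearest start site.

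EOMES, which acts in mesendoderm and in lymphocytes, had 3 regions in all 4 lists, with 1533, 1586, 1672 and 1707 bp at its start. TBR1, a cortical factor, had 1 region 530 bp before its start (1213, 1536, 1147 and 1385 bp). TBX21, which directs type 1 helper T cells, had 701, 1110, 946 and 864 bp at its start. A second TBX21 region, chr17:47742519-47743088, had a peak in every knockout list (415, 531 and 529 bp) but no control peak. MGA, the scaffold of a Polycomb complex with MAX and E2F6, was covered at all 3 of its RefSeq starts in all lists, with 1103, 1137, 1119 and 967 bp at the first. TBX6 shared its start region with YPEL3 (1179, 1184, 1153 and 1081 bp).

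Of the GATA genes, GATA1, the erythroid factor, had no peak in its body in any list. Its single region, 7034 bp away, overlapped HDAC6 and measured 1385, 1419, 1373 and 1369 bp, so GATA1 counted as open only through the flank rule. GATA2, a factor of blood stem cells, carried the widest control peak of the family, 1913 bp at chr3:128487699-128489611. In the knockouts the region merged over the lists had 2513 bp in 2 peaks, 1463 bp in 2 peaks and 993 bp in 1 peak. GATA3 had 3, 2, 4 and 4 peaks. Its middle region, chr10:8049540-8051193, measured 1358 bp in the control, had no peak in the IGF2BP1 knockout, and measured 617 and 1654 bp in the others.

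GATA4, a heart and endoderm factor, had the most GATA peaks, 6, 6, 5 and 7. The IGF2BP2 knockout lacked 2 GATA4 regions that the other lists held (760, 1131 and 937 bp, and 511, 544 and 612 bp, in the control and the IGF2BP1 and IGF2BP3 knockouts). Its neighbouring peak was also narrower, at 1847, 1887, 935 and 1573 bp in the 4 lists. GATA5 had 1 region of 737, 828, 566 and 749 bp. GATA6, an endoderm factor, was covered at its start by 2 peaks of 923 and 948 bp in the control and by single peaks of 2290, 2279 and 2232 bp in the knockouts. A second GATA6 region in the body, chr18:22193025-22194139, was 1115, 631 and 908 bp wide in the 3 knockouts and had no control peak. Within 1 Mb of GATA6 the lists held 30, 48, 61 and 48 peaks, and their part in the result was not tested.

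Merging the lists gave 124 regions at the members, and no region fell in the windows of 2 members. Of these, 63 (50.8%) were in all 4 lists, against 48.9% of 44916 regions at protein-coding genes. By family the share was 28 of 63 (44.4%) for SOX, 25 of 44 (56.8%) for T-box and 10 of 17 (58.8%) for GATA. Regions that every knockout list held and the control list lacked numbered 10 (8.06%, against 5.65%). Of these, 7 were at SOX genes (11.1% of SOX regions), 2 at T-box genes (4.55%) and 1 at a GATA gene (5.88%). Of the 124 regions, the control alone held 2 (1.61%, against 2.09%) and the IGF2BP1 knockout alone 10 (8.06%, against 5.65%). The IGF2BP2 knockout alone held 10 (8.06%, against 12.0%) and the IGF2BP3 knockout alone 6 (4.84%, against 3.84%).

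The 10 regions of all 3 knockouts lay at SOX4, SOX5, SOX6, SOX10, SOX14 (2 regions), SOX21, TBX2, TBX21 and GATA6. None of them touched a RefSeq promoter window of its member, which could be asked for all but SOX10, SOX14 and TBX2, while 5 lay in the gene body and 5 in a flank, and 2 were in another coding gene. By rank of width within each knockout list, in the same order, they lay at a median percentile of 66.3, 50.7 and 36.2, against 36.7, 43.3 and 31.1 for such regions at all protein-coding genes. Regions of the members in all 4 lists were wider, at a median percentile of 76.2 in the control and 78.8, 75.6 and 77.1 in the knockouts, against 65.8, 69.9, 75.1 and 68.3 at all protein-coding genes. Of those 63 regions, 20 touched a promoter window.

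Peak widths at the members followed those of their lists. The median was 939 bp in the control (79 peaks), 1034 bp without IGF2BP1 (102 peaks), 732 bp without IGF2BP2 (104 peaks) and 856.5 bp without IGF2BP3 (94 peaks). At all protein-coding genes the same medians were 841, 894, 697 and 787 bp. By family, the control medians were 927.5 bp for SOX, 1017.5 bp for T-box and 948 bp for GATA, a smaller range than the widths within any family. In the IGF2BP2 knockout they were 758, 650 and 697.5 bp, so T-box peaks were the widest family in the control and the narrowest in that knockout.

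**Figure D4:**
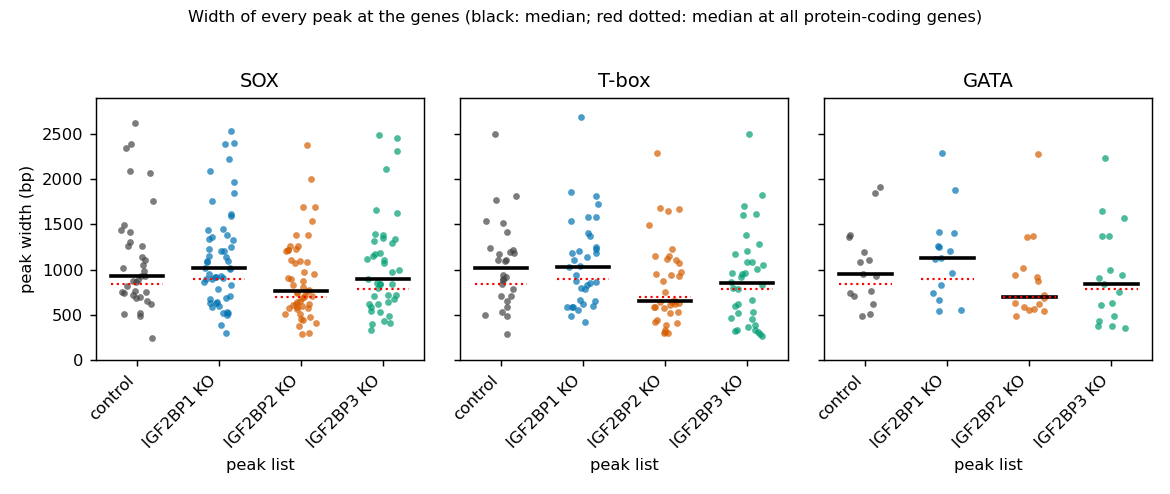
Width in bp (vertical axis) of every peak in the body or within 10 kb of the SOX, T-box and GATA genes, by list, with the family median in black and the median at all protein-coding genes dotted in red. The control medians are 927.5, 1017.5 and 948 bp, and single peaks range from 236 to 2622 bp in the control.

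At the 63 regions held by all 4 lists, the covered length relative to the control had a median of 1.08, 0.966 and 0.965 in the IGF2BP1, IGF2BP2 and IGF2BP3 knockouts, against 1.08, 0.995 and 0.98 at all protein-coding genes. A difference of 1.5 times was taken as a marker of change after the values were seen. In the IGF2BP1 knockout, 6 regions (9.52%, against 8.19%) were at least 1.5 times wider, at SOX1, SOX3, SOX6, TBX2, TBX21 and GATA4, and 1 (1.59%, against 0.692%) was narrower by as much, at GATA3. In the IGF2BP2 knockout, 2 (3.17%, against 3.15%) were wider, at SOX6 and TBX2, and 9 (14.3%, against 4.59%) were narrower, at SOX1, SOX8, SOX11, SOX12, TBX1 (2 regions), TBX10, MGA and GATA4. In the IGF2BP3 knockout, 2 (3.17%, against 3.08%) were wider, at SOX3 and SOX4, and 6 (9.52%, against 6.76%) were narrower, at SOX8, SOX15, TBX4, TBX10, GATA2 and GATA4. No region passed this size in the same direction in all 3 knockouts. Such regions were also few at all protein-coding genes, with 200 wider and 45 narrower of 21959.

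**Figure D5:**
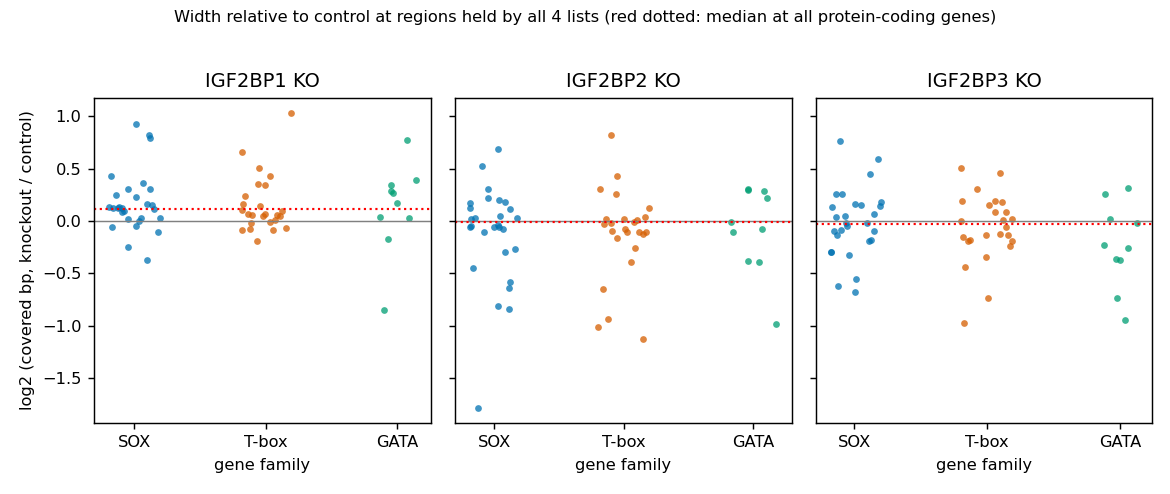
Covered length in each knockout relative to the control on a log2 scale (vertical axis) at the 63 regions held by all 4 lists, by family (horizontal axis), with the median at all protein-coding genes dotted in red and equality in grey. Most points lie near the line in each panel, the SOX11 region is the lowest in the IGF2BP2 knockout at 0.29 times the control, and the TBX2 region is the highest in the IGF2BP1 knockout at 2.05 times.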

How the data were processed

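ATAC-seq peaks were analysed as deposited. Per the submitters' processing notes, the tools were fastp 0.24.1, BWA 0.7.17, MACS2 3.0.0 and bedtools, and the build was GRCh38. Their roles, the peak threshold, the handling of the transposase offset and the way in which libraries were combined are not given in the sources used here. The authors' lists give the chromosome, start and end of each peak and no other value. Positions are printed counted from 1. Gene bodies, gene names and start sites came from RefSeq tables of GRCh38.p14, in which all 42 symbols matched. The gene table has no strand or exons, so exons, introns and UTRs were not told apart. Counts, merging of peaks that share at least 1 bp and covered lengths were computed in Python 3.11.15 with pandas 2.3.3, and the rule was tested on simulated data. Members and gene lists were chosen with earlier results of these data known. Values are given for each member whose class or promoter peak differed between lists, the 3 members of each family with most control peaks (ties by summed width), and the widest control peak of each family. Other members are described in addition and were chosen after their values were seen. No test was run, since each group is 1 list.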

Additional observations from a re-analysis of the deposited data

How the results depend on the processing

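Of 106 counts recomputed under 9 alternatives, 90 stayed within 1.5 times the reported value. Calls for single genes moved more often. For SOX10, SOX14, SOX15, SOX17, SOX30, TBX5, TBX15, TBX22, TBXT and GATA1, the number of lists with a peak was compared 80 times. It was the same in 48 comparisons and another number in 32. With gene bodies alone, members closed in all lists rose from 2 to 7, regions fell to 82 and those in all 4 lists to 40, and members open in every knockout list but closed in the control went from 3 to 0. With 50 kb flanks these values were 1, 232, 118 and 1, and 3 members differed between lists in place of 6. Within 1 kb of a start site or gene end they were 11, 36, 29 and 1. Without peaks in other coding genes, 7 members were closed (SOX8, SOX10, SOX15, SOX17, TBX6, TBX22 and GATA1). Peaks nearer to the member than to any other coding gene, an alternative chosen after seeing the data, gave 7 as well. With the widest peaks of each list, as many as the control list holds, SOX14 was the 1 member still open in every knockout list but closed in the control, and SOX10 was closed in all lists. SOX14 was open in all 3 knockouts and closed in the control under each alternative except gene bodies alone, where the IGF2BP2 knockout had no peak. TBX22 was closed in all lists under each alternative, and SOX17 under each but the 50 kb flanks. Libraries could not be left out in turn, because the lists pool them, and no paired analysis was possible because the result comes from no test. The unknown depth limits each absence of a peak: a list without one may only have missed it.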

Other observations

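Other genes related to the 3 families were mostly open in all lists. This held for 10 of 11 other HMG-box genes, with 1 closed in all. All 11 genes of the list of GATA-type zinc finger proteins and their FOG cofactors were open in all lists, as were all 11 partners of MGA in its Polycomb complex. Of 17 partners of SOX, T-box and GATA factors, 16 were open in all lists, and the exception was TAL1, the blood factor that works with GATA1, which had 1 peak in the IGF2BP1 knockout and none elsewhere. The background over all protein-coding genes was 81.8%. The median window of the HMG-box and GATA-type lists (141.4 and 138.2 kb) was longer than that of all genes (44.2 kb). It was 68.3 kb for the partners of MGA and 36.0 kb for the partners of SOX, T-box and GATA factors. The part of window length in the result was not tested.

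Other developmental families gave similar shares, with 7 of 9 PAX genes, 40 of 50 FOX genes, 17 of 18 KLF genes and 7 of 8 LHX genes open in all lists. PAX8, a kidney factor, had 1 peak in the control, 5 in each of the IGF2BP1 and IGF2BP2 knockouts and 0 in the IGF2BP3 knockout. FOXS1 had 1, 2, 3 and 0 peaks in the same order. FOX genes with near-identical copies, such as FOXD4L4 and FOXD4L6, are uncertain. Of the 9 genes that differed between peak lists in these families, TAL1 included, none was open in all 3 knockouts and closed in the control.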
